A study of Mus musculus with 6 samples.

Results

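Nobox, Figla, Lhx8, Sohlh1, Sohlh2, Nr5a2, Pou5f1 and Foxo3 are transcription factors of oocyte growth and identity, and the sections below give their RNA levels in fully-grown mouse oocytes with and without normal Marf1. The members were the rows of the deposited value table that the platform annotation assigns to exactly 1 of these genes. All 8 genes were found, each with 1 probe set, among 19938 genes and 35556 probe sets. There were 6 arrays. The 3 wild-type samples were Marf1+/+ and the 3 mutant samples carried the chemically induced allele on both copies (Marf1 ENU/ENU), all in the strain background given as C57BL/6J;C3HeB/FeJ. All females had been primed at 21 days of age with 5 IU of equine chorionic gonadotropin for 46 hours, and oocytes at the germinal-vesicle stage, described as transcriptionally silent, were taken from large antral follicles at 23 days and freed of cumulus cells. No label used here states how many oocytes or animals went into a sample, so the spread behind each p-value is that between 3 samples and may be technical. The females carried the allele in all their cells, granulosa cells included.

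An oocyte builds its RNA store while it grows in the follicle and then stops transcribing, so the level of a factor's mRNA at the fully-grown stage reflects what was stored and what was degraded. Figla, Sohlh1 and Sohlh2 are basic helix-loop-helix proteins, which bind the E-box as dimers. Nobox and Lhx8 are homeodomain proteins, Pou5f1 (Oct4) is the POU factor of the germline and of pluripotent cells, Nr5a2 is an orphan nuclear receptor, and Foxo3 is the forkhead factor that keeps primordial follicles dormant until Kit and Akt signalling drives it from the nucleus. Sohlh1 and Sohlh2 mark the earliest follicle stages, whereas Nobox, Figla and Lhx8 sustain the expression of zona, growth factor and maternal effect genes. Marf1 itself, an RNA-binding protein that oocytes need to resume meiosis, was lower in the mutant on each array (5.98, 6.40 and 6.16, against 9.21, 9.16 and 9.31 in wild type, log2 expression).

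Of the 8 factors, 2 passed the threshold and both were higher in the mutant. Nr5a2 rose 2.74-fold and Sohlh1 1.94-fold, whereas 6 did not pass. The threshold was an adjusted p under 0.05 in limma, with the Benjamini-Hochberg adjustment over all rows of the table. Among all 19938 genes 10.4% passed, 6.4% as higher and 4.04% as lower in the mutant. The members' 25% rests on 2 genes. The median log2 fold change was -0.08 over the 8 members and -0.04 over all genes. The groups did not overlap for 5 of the 8, of which 2 were higher and 3 lower in the mutant, and among all genes 30.7% had groups that did not overlap (12.9% with the mutant above, 17.7% below).

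The promoters of the changed genes and of the closest relative of one of them are shown first, so that the motifs of the factors can be read in them. Each is the 250 bases before the annotated start, from RefSeq on GRCm38.p6, 5′ to 3′ on the gene's strand. Capitals mark each match, on either strand, to 1 of 7 motifs: the E-box CANNTG, its palindromic form CACGTG (which is also counted as an E-box), TAATTG of Nobox, TGATTG of Lhx8, AAGGTCA of the Nr5a receptors, the octamer ATGCAAAT of POU factors, and TGTTTAC of Foxo factors. Nr5a2 has 2 annotated starts, and its probe set does not say which was used. The positions are chr2:25847249-25847498 (minus strand) for Sohlh1, chr3:55181794-55182043 (plus strand) for Sohlh2, and chr1:136960449-136960698 and chr1:136953631-136953880 (minus strand) for Nr5a2.
Sohlh1: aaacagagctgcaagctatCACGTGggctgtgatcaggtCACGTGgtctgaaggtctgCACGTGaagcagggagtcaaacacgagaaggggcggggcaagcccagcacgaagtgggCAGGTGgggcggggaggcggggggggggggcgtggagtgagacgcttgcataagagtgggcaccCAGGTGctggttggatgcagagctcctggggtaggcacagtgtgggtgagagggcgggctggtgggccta
Sohlh2: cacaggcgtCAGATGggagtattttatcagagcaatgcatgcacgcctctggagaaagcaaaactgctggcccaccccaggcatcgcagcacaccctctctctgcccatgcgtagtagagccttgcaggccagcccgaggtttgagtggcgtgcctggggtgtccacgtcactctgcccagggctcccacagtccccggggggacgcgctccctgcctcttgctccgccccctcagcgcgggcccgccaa
Nr5a2, promoter 1: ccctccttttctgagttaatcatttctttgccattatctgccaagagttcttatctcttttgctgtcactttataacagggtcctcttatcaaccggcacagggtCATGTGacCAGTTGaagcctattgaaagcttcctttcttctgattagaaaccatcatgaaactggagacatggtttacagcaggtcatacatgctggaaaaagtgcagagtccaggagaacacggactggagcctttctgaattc
Nr5a2, promoter 2: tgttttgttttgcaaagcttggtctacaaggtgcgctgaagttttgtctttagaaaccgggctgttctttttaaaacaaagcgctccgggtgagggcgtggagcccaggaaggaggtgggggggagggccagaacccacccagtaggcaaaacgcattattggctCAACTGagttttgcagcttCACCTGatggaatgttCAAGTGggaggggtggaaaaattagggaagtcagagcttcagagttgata

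The Sohlh1 window held 5 E-boxes, 3 of them CACGTG. Of 32851 promoter windows of the same length, 66.2% held an E-box, 1.15% held at least 5, 6.02% held CACGTG and 0.0609% held it at least 3 times. The Sohlh2 window held 1 E-box, and the windows of Nr5a2 held 2 and 3, none of them CACGTG. The windows of Nobox and Figla held 2 E-boxes each, those of Lhx8 and Foxo3 0, and the pair of Pou5f1 windows 1 and 2. The motifs of Nobox, Lhx8, Nr5a receptors, POU and Foxo factors matched 0 times in the 10 windows of the 8 genes. In all windows these motifs were found in 7.17%, 12.7%, 4.08%, 1.6% and 3.17%. A match is only a run of letters, and no binding was measured.

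Nr5a2 (probe set 10358210), also known as Lrh-1, acts in granulosa cells at ovulation and as a maternal factor in the early embryo. It read 8.89, 8.72 and 8.53 in wild type and 10.43, 10.12 and 9.96 in the mutant (log2 expression, replicates 1 to 3). Every mutant value lay above every wild-type value, and the gap between the groups was wider than the spread within either of them. The means were 8.71 ± 0.18 and 10.17 ± 0.24 (SD, n = 3 each), a log2 fold change of 1.46 (SE 0.17, limma adjusted p = 0.00251). The change ranked above that of 97.1% of all genes.

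Because granulosa cells also express Nr5a2, the markers of those cells were read on the same arrays. Of 16 measured cumulus and granulosa markers 1 rose, 1 fell and 14 did not pass (12.5% called, against 10.4% of all genes). The median log2 fold change of these markers was -0.09. Their summed linear signal ran from 365 to 420 in wild type and from 355 to 430 in the mutant, so the groups overlapped. Kitl, the ligand of Kit, rose by 1.94 on the log2 scale from a mean of 3.72, and Ptgs2, a prostaglandin synthase of expanding cumulus, went from a mean of 5.14 to 4.14. No marker was at 0, since these log2 values have no true zero. For comparison with a dim signal, the mean levels of 1194 olfactory and vomeronasal receptor genes were taken, whose 95th percentile was 4.53 (the receptor-gene level). The wild-type mean of Kitl and the mutant mean of Ptgs2 lay below that level, so the sizes of their changes may be lower bounds. The markers Fshr, Amh, Amhr2, Ptx3, Tnfaip6, Cyp11a1 and Star lay below that level in both genotypes. All 10 oocyte markers measured and all 8 factors lay above it, and 0 of the oocyte markers passed the test in limma (1 higher and 1 lower at unadjusted p under 0.05). Of 9 theca and stroma markers 1 rose (11.1%, against 10.4% of all genes). This was Pdgfra, by 0.67 from a mean of 4.22 that also lay below the level. Of 9 blood, immune and endothelial markers 1 fell (11.1%), Pecam1, from a mean of 7.27 to 6.20 on these oocyte arrays (log2 fold change -1.07). The other endothelial markers, Cdh5 and Kdr, lay below the level in both genotypes and did not pass. Pecam1 was the brightest gene of its list, so it weighs most in that list's sum. The summed linear signals of the theca and blood lists ran from 185 to 212 and from 274 to 308 in wild type and from 186 to 231 and from 212 to 252 in the mutant. The part of any of these in the factors' changes was not tested.

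Sohlh1 (probe set 10480869), which starts the differentiation programme of the oocyte in the youngest follicles, was the other factor that rose. Its values were 5.23, 5.14 and 5.23 in wild type and 6.42, 6.05 and 5.99 in the mutant. The groups did not overlap, and the wild-type values lay close together. Mean levels were 5.20 ± 0.05 and 6.15 ± 0.23, a log2 fold change of 0.95 (SE 0.16, limma adjusted p = 0.0109). The call held on leaving out any 1 array, but the adjusted p then ran up to 0.0486 (without wild-type replicate 3).

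Sohlh2 (probe set 10492123), the dimer partner and closest relative of Sohlh1, did not pass. It read 6.79, 5.60 and 5.64 in wild type and 5.57, 5.47 and 5.38 in the mutant. Wild-type replicate 1 stood far above the other arrays, and the remaining wild-type values lay just above the mutant ones. The log2 fold change was -0.54 (SE 0.31, 95% interval -1.26 to 0.18, adjusted p = 0.421), and -0.15 without wild-type replicate 1. The difference Sohlh1 minus Sohlh2 within each array, which does not move with a shift of the whole array, was -1.56, -0.46 and -0.41 in wild type and 0.85, 0.58 and 0.61 in the mutant. The groups did not overlap, and the difference moved by 1.49. An exact permutation test, two-sided, gave p = 0.1, the smallest that 3 against 3 samples allow, and 0.2 adjusted over the 2 pairs compared. The levels of different probe sets are not on one scale, so only the move between genotypes is read.

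**Figure D1:**
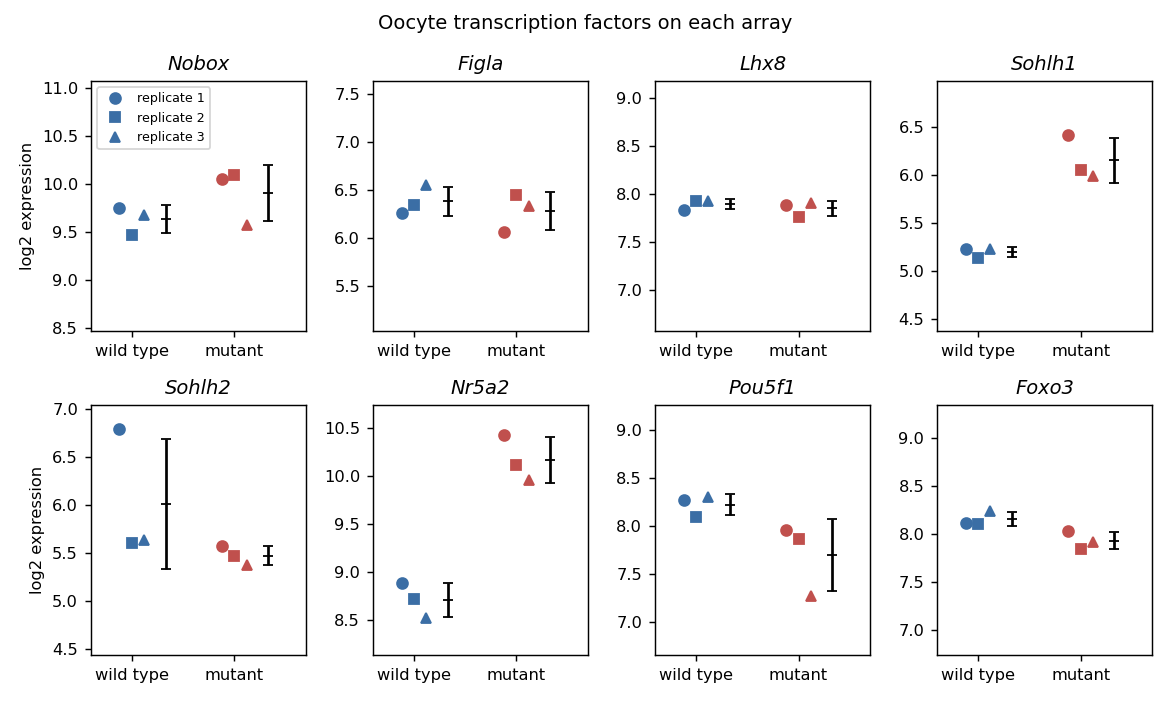
Log2 expression of the 8 factors on each array. Points are samples (circle, square and triangle for replicates 1 to 3), bars on the right of each group show the mean and SD (n = 3), and every panel spans the same height on the log2 scale. Mutant values lie clear above wild type for Nr5a2 and Sohlh1, wild-type replicate 1 stands apart for Sohlh2, and mutant replicate 3 is the lowest point for Pou5f1.

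Figla (probe set 10539665), which switches on the zona pellucida genes and is needed to form primordial follicles, read 6.26, 6.34 and 6.55 in wild type and 6.06, 6.45 and 6.33 in the mutant. The groups overlapped, with a log2 fold change of -0.10 (SE 0.16, 95% interval -0.48 to 0.27, adjusted p = 0.823). Of the basic helix-loop-helix factors among the members, Sohlh1 passed and Figla and Sohlh2 did not.

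Nobox (probe set 10544477), the oocyte homeobox factor that activates Gdf9 and other growth genes, read 9.75, 9.47 and 9.68 in wild type and 10.05, 10.09 and 9.57 in the mutant. Mutant replicates 1 and 2 lay above all wild-type values and mutant replicate 3 between them. The log2 fold change was 0.27 (SE 0.18, 95% interval -0.15 to 0.69, adjusted p = 0.514), and 0.44 with adjusted p = 0.137 without mutant replicate 3. That array stands apart over the whole table: it correlated with the other mutant arrays at r = 0.970 to 0.973, where the remaining pairs of 1 genotype reached 0.984 to 0.985.

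Lhx8 (probe set 10502961), a LIM-homeodomain factor without which oocytes are lost soon after birth, read 7.84, 7.93 and 7.93 in wild type and 7.89, 7.76 and 7.91 in the mutant. The groups overlapped, and the log2 fold change of -0.05 had a small error (SE 0.13, 95% interval -0.35 to 0.25, adjusted p = 0.909). That interval leaves out changes of 2-fold in either direction, as do those of Figla, Nobox and Foxo3. Cyclic loess normalization, which moved the estimates of all 8 factors upward, gave 0.03 for Figla and 0.11 for Lhx8.

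Pou5f1 (probe set 10444853) read 8.27, 8.10 and 8.30 in wild type and 7.96, 7.87 and 7.27 in the mutant. All mutant values lay below all wild-type values, with mutant replicate 3 the lowest. The log2 fold change of -0.52 (SE 0.20, 95% interval -0.997 to -0.050) did not pass (unadjusted p = 0.0344, adjusted p = 0.201 in limma), and without mutant replicate 3 it was -0.31. Foxo3 (probe set 10368888) read 8.12, 8.11 and 8.24 in wild type and 8.03, 7.85 and 7.92 in the mutant. Its groups did not overlap either, but lay close together, with a log2 fold change of -0.22 (SE 0.13, 95% interval -0.53 to 0.08, adjusted p = 0.432). Foxo3 minus its relative Foxo1 within each array was 0.30, 0.38 and 0.40 in wild type and 0.31, 0.19 and 0.18 in the mutant. That pair overlapped between genotypes, with a move of -0.13 (exact permutation test, two-sided, p = 0.2, and 0.2 adjusted over the 2 pairs).

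**Figure D2:**
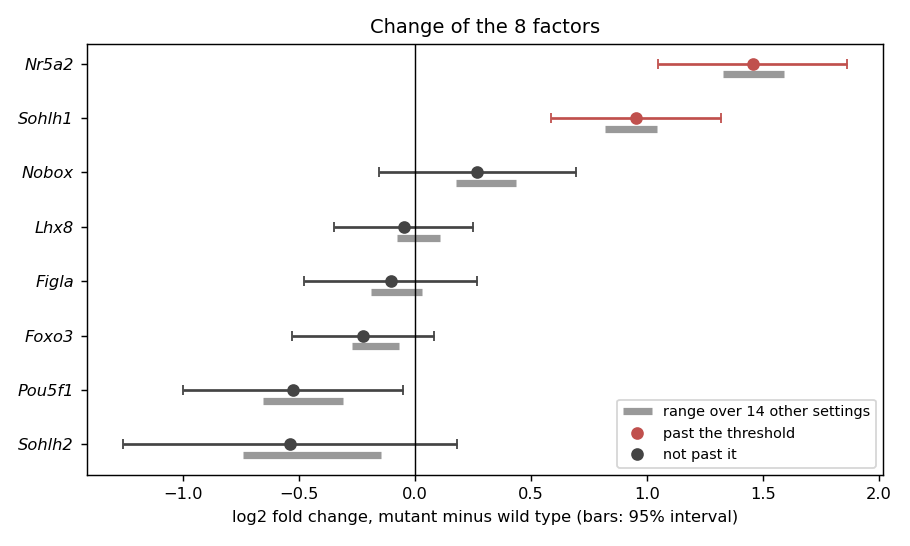
Log2 fold change (mutant minus wild type) of each factor with its 95% interval. In grey is the range of the estimate over 14 other settings, which changed the normalization, the rows or the model, or left out 1 array. Nr5a2 (1.46) and Sohlh1 (0.95) lie clear of 0, and for Lhx8 and Figla the grey range spans 0.

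**Figure D3:**
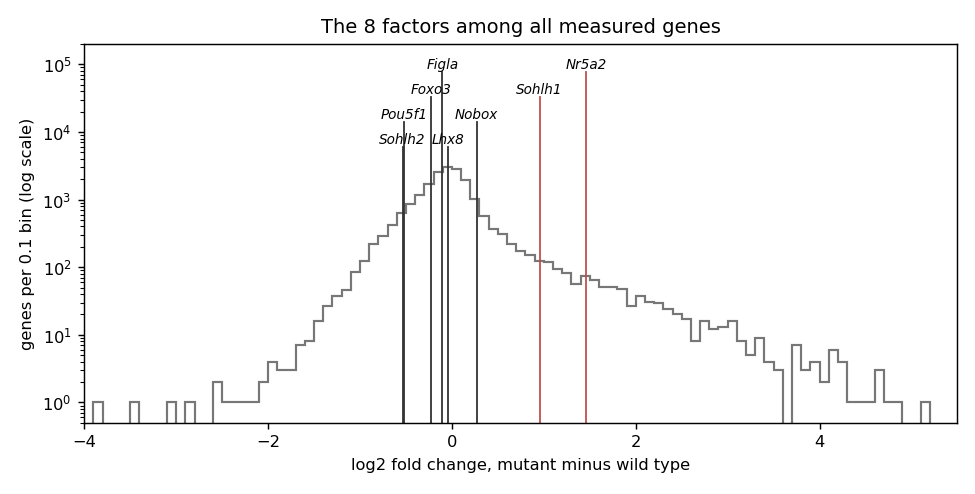
The log2 fold changes of all 19938 genes as an outline (bins of 0.1, log scale on the vertical axis), with a line at the value of each factor. Nr5a2 and Sohlh1 stand on the upper shoulder of the distribution, above 97.1% and 94.9% of genes, and the other 6 lie between -0.54 and 0.27.

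The genes whose 6 values ran closest to those of Nr5a2, after each gene's own mean was subtracted, were Jph1, Map3k1 and Spin4, of 19937 genes searched. Their root mean square distances were 0.06, 0.08 and 0.09 on the log2 scale over 6 arrays, and their log2 fold changes 1.52, 1.50 and 1.55. The wild-type mean of Map3k1, 4.09, lay below the receptor-gene level, so its change may be a lower bound and its distance from Nr5a2 is not settled. Closest to Sohlh1 were Cwc25, Vezf1 and Ube2j1, at distances of 0.05, 0.06 and 0.07, with log2 fold changes of 0.93, 0.87 and 1.00. In both sets mutant replicate 1 was the highest array, as it was for Nr5a2 and Sohlh1, which follows from choosing genes by nearness over these same arrays. Likeness over 2 groups of 3 arrays rests mostly on the step between genotypes.

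Among the partners and inhibitors of basic helix-loop-helix factors, Tcf12, Id2 and Id3 were higher in the mutant. Of 7 measured E-protein and Id genes 3 rose and 0 fell (42.9%, against 10.4% of all genes). Their median log2 fold change was 0.20 against -0.04 over all genes (at unadjusted p under 0.05 in limma, 3 higher and 1 lower). This list and the others were chosen with earlier results of these data known, so a high share is not a test. Tcf12, an E protein that pairs with tissue-specific factors of this class, read 6.86, 6.69 and 7.10 in wild type and 8.88, 8.51 and 8.07 in the mutant (1.60, SE 0.23, adjusted p = 0.00529). The other E proteins, Tcf3 and Tcf4, had log2 fold changes of -0.36 and -0.44 and did not pass. Id proteins lack a DNA-binding region and hold E proteins in inactive dimers. Id3 went from 4.90, 5.11 and 5.12 to 8.72, 9.50 and 8.44 (3.84, SE 0.27, adjusted p = 2.42e-04), and Id2 from 5.22, 5.11 and 4.63 to 8.25, 8.11 and 7.80 (3.07, SE 0.20, adjusted p = 2.16e-04). The groups were far apart for both, while Id1 and Id4 had log2 fold changes of 0.20 and 0.15 and did not pass.

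Some further factors of oocyte growth had large differences. Of 15 measured, 4 rose and 1 fell (33.3%, against 10.4% of all genes), with a median log2 fold change of 0.00. Tbpl2, which replaces the TATA-binding protein in growing oocytes, read 4.73, 5.25 and 4.27 in wild type and 8.99, 9.15 and 8.59 in the mutant (4.16, 17.9-fold, SE 0.27, adjusted p = 1.98e-04). Its wild-type mean of 4.75 lay just above the receptor-gene level, so the fold may be a lower bound. The zinc finger factor Yy1, which oocytes need for follicle growth, went from 5.51 ± 0.43 to 8.26 ± 0.32 (2.76, SE 0.26). Taf4b, a TFIID subunit of the ovary and testis, rose by 1.13 and Sp1 by 0.96. Sebox, an oocyte homeobox gene with a maternal effect, went from 7.93, 8.13 and 7.95 to 7.11, 7.30 and 6.42 (-1.06, adjusted p = 0.0343), a call lost under 5 of 14 other settings. Stat3, Sub1 and Dynll1, which together with Nobox, Figla, Lhx8, Sohlh1 and Tbpl2 make up a set of factors able to turn stem cells into oocyte-like cells, had log2 fold changes of -0.46, 0.04 and 0.11 and did not pass. Of that set of 8, Sohlh1 and Tbpl2 passed, both already counted above. Of all genes 10.4% passed, and a share resting on so few genes is no test of the set.

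The genes that these factors sustain were read as a list of 15 oocyte growth genes. Gdf9, Bmp15, Zp1, Zp2, Zp3, Npm2, Nlrp5 and Zar1 are also among the oocyte markers above, so the counts of these lists are not separate observations. In the list of growth genes 0 rose and 1 fell (6.67%, against 10.4% of all genes). The median log2 fold change was -0.17 against -0.04 over all genes (0 higher and 3 lower at unadjusted p under 0.05 in limma). Kit, the receptor for the granulosa ligand, went from 9.16, 8.91 and 9.47 to 7.92, 7.96 and 7.81, with no overlap (-1.28, SE 0.17, adjusted p = 0.00419). The other 14 ran from -0.45 for Nlrp5 to 0.08 for Mos. In the pluripotency and POU list 0 of 21 genes passed in limma, against 10.4% of all genes (2 higher and 1 lower at unadjusted p under 0.05). Nanog, Tdgf1, Fgf4, Prdm14 and Zfp42 lay below the receptor-gene level in both genotypes, where a change is hard to see. Zfp42 was 1 of the 2 higher genes. Sox2, the partner of Pou5f1, had a log2 fold change of 0.00 (95% interval -0.49 to 0.49).

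Of 20 measured LIM-homeodomain relatives and cofactors of Lhx8, 0 rose and 1 fell (5%, against 10.4% of all genes). Lhx1, Lhx5 and Lhx9 lay below the receptor-gene level in both genotypes. The gene that fell was Lmo3, a LIM-only protein (-0.87, SE 0.14, adjusted p = 0.0107), and the median over the list was -0.13. The count was 0 without wild-type replicate 3, and 2 under quantile normalization, where Lmo1 (-0.61 as deposited, adjusted p = 0.0556) also passed. Lmo1 passed as well with dim rows left out and with only 1 row per gene fitted. Ldb1, the adaptor through which LIM factors form complexes, had a log2 fold change of -0.03. Of 11 relatives and cofactors of Nr5a2, 1 rose and 0 fell (9.09%, near the 10.4% of all genes), with a median of -0.07. That gene was Ppargc1a, a coactivator of nuclear receptors, by 1.26 (SE 0.20, adjusted p = 0.00897). Its wild-type mean of 4.68 lay just above the receptor-gene level, and the mean of its 2 probe sets gave 1.79. Beta-catenin (Ctnnb1), a coactivator of Nr5a2, had 0.56 and an adjusted p of 0.0672 in limma. It passed under quantile and cyclic loess normalization, which gave the list 3 and 2 calls. Ctnnb1 also passed with dim rows left out, with only 1 row per gene fitted, and in a trended robust fit. Nr5a1, the other Nr5a receptor, had -0.17 (95% interval -0.52 to 0.18).

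Several genes of the Kit, Pi3k, Akt and Tor axis were higher or lower in the mutant, but not every gene of it controls Foxo3. Of those called, Tsc1, Tsc2, Mtor and Rptor belong to its Tor part. Of 27 genes of the Kit, Pi3k, Akt and Tor axis 5 rose and 3 fell (29.6%, against 10.4% of all genes), with a median log2 fold change of -0.11 against -0.04 over all genes. Kit, at the head of the axis, fell as given above, and Pik3cb, a catalytic subunit of Pi3k, rose from 7.30 ± 0.08 to 8.68 ± 0.06 (1.38, SE 0.13, adjusted p = 8.14e-04). Sgk1, a kinase that phosphorylates Foxo3, read 5.51, 5.62 and 5.73 in wild type and 7.36, 7.44 and 7.38 in the mutant (1.77, SE 0.13). Sirt1, a deacetylase that acts on Foxo proteins, rose by 1.82, and Rptor, the scaffold of the first Tor complex, by 1.80. Tsc1 rose by 1.05 while its partner Tsc2 and the kinase Mtor changed by -0.77 and -0.71, and these 3 calls were lost under 5, 8 and 5 of 14 other settings. The axis held 4 higher and 1 lower without wild-type replicate 3 or mutant replicate 1 or 2. Foxo1, Foxo4 and Foxo6 had log2 fold changes of -0.09, 0.03 and -0.19 and did not pass, nor did Akt1 (-0.14) and Akt2 (-0.48).

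Of 17 known Foxo target genes 1 rose and 1 fell, with a median log2 fold change of 0.09. That is 11.8% of the list, near the 10.4% of all genes. Sesn1, a stress-induced inhibitor of Tor signalling, rose by 1.42 (SE 0.18, adjusted p = 0.00309), from a wild-type mean of 4.23 that lay below the receptor-gene level. Sod2, the mitochondrial superoxide dismutase, changed by -0.77 (adjusted p = 0.0402), and this call was lost under 8 of 14 other settings, 5 of which left out wild-type replicate 1, 2 or 3 or mutant replicate 1 or 2. Under cyclic loess normalization or median centring the list had 2 higher and 0 lower, Sesn1 and Pik3ip1. Cdkn1b, the cell cycle inhibitor that Foxo3 activates, had a log2 fold change of 0.16 (SE 0.44), with mutant replicate 3 at 6.47 as its lowest value and mutant replicate 2 at 8.26 as its highest.

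**Figure D4:**
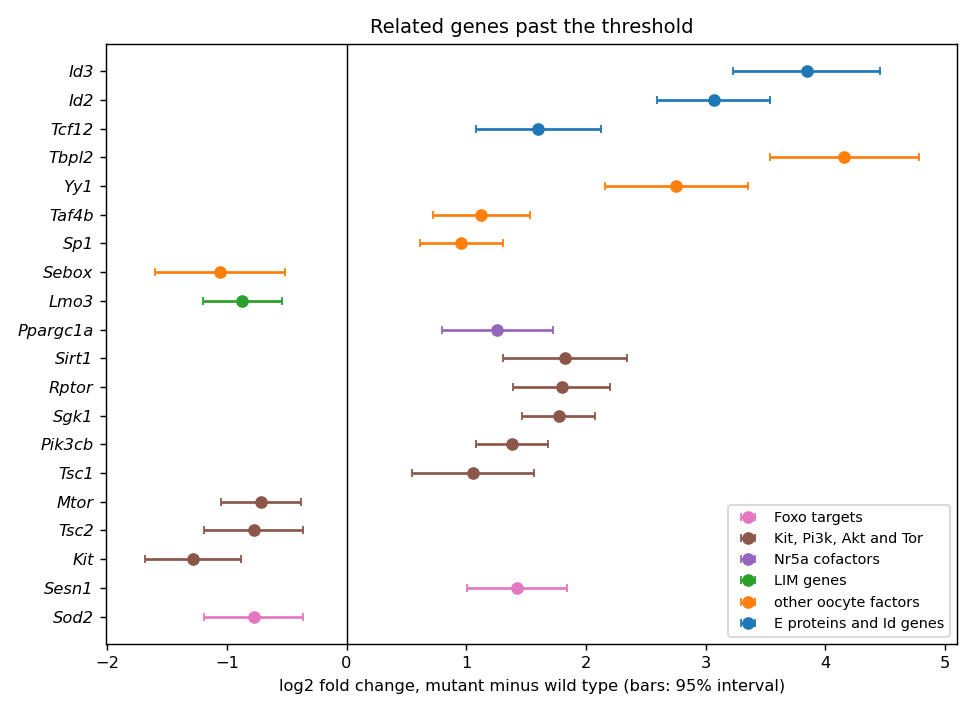
Log2 fold change with its 95% interval for the 20 genes past the threshold among 132 related genes, coloured by list (Kit is drawn once, with its axis). Of them 14 are higher in the mutant, led by Tbpl2 (4.16), Id3 (3.84) and Id2 (3.07), and 6 are lower, led by Kit (-1.28).

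Over the lists together, 20 of 132 distinct genes passed, 14 higher and 6 lower in the mutant, and median centring gave 14 and 3. Of all genes 10.4% passed, 6.4% as higher and 4.04% as lower. The arrays were scaled to one another, which hides any difference in RNA content per oocyte, and fewer oocytes of a kind and less RNA per oocyte cannot be told apart.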

How the data were processed

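RNA from 6 samples was amplified and hybridised, 1 sample to an array. Each value deposited by the authors is a log2 expression level of 1 probe set, made with GCOS, Affymetrix Expression Console 1.1 and RMA, per the submitters' processing notes. RMA corrects background, normalizes between arrays and combines the probes of a set, but the deposited arrays do not share 1 distribution: medians run from 4.56 to 4.76, and mutant replicate 3 has the smallest SD (2.04, against 2.14 to 2.20). The number of arrays limits the precision. Gene names came from the platform annotation, in which 21789 rows name 1 gene, and the row with the highest mean stood for a gene. Wild type and mutant were tested two-sided on all 35556 rows using lmFit and eBayes of limma (version 3.58.1, R version 4.3.3) with genotype alone in the model, and the pipeline was tested on simulated data.

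The members, the 8 lists of related genes, the marker lists and the rules were chosen with earlier results of these data known. Named were the members, up to 4 genes past the threshold per list by size of change, relatives of the members, and the 3 genes nearest in pattern to each changed member. Other genes (Sp1, Tsc1, Tsc2, Mtor, Kitl, Ptgs2, Pdgfra, Pecam1 and those named beside a list that did not pass) were chosen after their values were seen. Same-numbered samples did not deviate together (r = 0.15, -0.10 and 0.03), so the numbers were not used as pairs. Alternatives were 3 normalizations, a filter on dim rows, 1 row per gene, the mean of a gene's rows, a trended robust fit, a replicate block and leaving out each array. Promoters came from the RefSeq table of GRCm38.p6.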

Additional observations from a re-analysis of the deposited data

How the results depend on the processing

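Sohlh1 and Nr5a2 passed, and no other member did, in the deposited values and under each of the 14 other settings. The log2 fold change of Nr5a2 ran from 1.33 to 1.59 and that of Sohlh1 from 0.82 to 1.04. With the replicate block the count of members was also 2 and that of related genes 17 (14 higher, 3 lower), against 20. Leaving out 1 array gave 2 members each time and 14 to 19 related genes. The other settings gave 17 to 26 related genes, the most with 1 row per gene. Of the calls among related genes, Lmo3 was lost under 1 setting, Sebox, Tsc1 and Mtor under 5 each, and Tsc2 and Sod2 under 8 each. The cause was not tested. The paralogue difference Sohlh1 minus Sohlh2 ran from 1.11 to 1.69 and Foxo3 minus Foxo1 from -0.17 to -0.11 on leaving out 1 array. Of all genes called, 61.3% were higher as deposited, 55.9% after quantile normalization, 68.4% after median centring and 74.6% after cyclic loess. The values hold no measure of background, which limits the fold of dim genes.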
